A study of Sus scrofa with 8 samples.

Results

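Tight junctions and desmosomes are the contacts by which epithelial and epithelium-like cells seal the space between them and hold together under strain. Their genes were taken from the count table by pig Ensembl symbol: the numbered claudins, the TJP scaffold genes, MARVELD2 and MARVELD3, the desmocollins (DSC), desmogleins (DSG) and plakophilins (PKP), and OCLN, F11R, CGN, DSP, JUP, PPL and EVPL. This gave 40 of the 24358 genes counted, of which 19 were claudins, 7 other tight junction genes, 6 desmosomal cadherins and 8 desmosomal plaque genes. CGN and DSC3 had no named row and were not analysed here.

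RNA-seq counts were compared between 2 libraries of IRF-1 overexpressing porcine induced pluripotent stem cells (piPSCs; replicates 1 and 3) and 2 control libraries (replicates 6 and 8). The study describes all cells as DOX-hLIF-2i piPSCs, reprogrammed with doxycycline-inducible factors from embryonic fibroblasts of domestic pig that carried an OCT4-tdTomato reporter. By its account they were kept on feeder cells with doxycycline, human LIF, porcine LIF conditioned medium and the inhibitors CHIR99021 and PD0325901. The growth label names the LCDMV culture system instead, and the medium of these libraries cannot be settled from the sources. The overexpressing cells carried PB-CAG-IRF1-Flag, a transposon vector with the constitutive CAG promoter, and the controls carried PB-CAG-Flag; both groups were selected with puromycin. Whether the selected cells were 1 clone or a pool is not given, and feeder cells were reduced before RNA extraction by letting them attach to a plate for 1 hour. The genotype label reads overexpression for all 4 libraries, and their division into groups follows the study's own account of its libraries.

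IRF1, the introduced transcription factor, had 8206 and 5485 counts in the overexpressing replicates and 55 and 56 counts in control replicates 6 and 8. This is 297 ± 47.1 CPM (counts scaled to a common library size with TMM factors; SD, n = 2) against 3.36 ± 0.225 CPM (SD, n = 2), a rise of 6.46 on the log2 scale (standard error 0.21, edgeR adjusted p = 3.65e-05), so the gene's level followed the assigned groups. Total counts were 24923319 and 20858333 with IRF-1 overexpression and 15925429 and 17097669 in the controls. Of 12 markers written for pluripotent cells, 6 had a named row; DNMT3B had between 10849 and 25707 counts and LIN28A between 3875 and 7905 counts in every library, whereas NANOG had between 5 and 11 counts and DPPA5 at most 2. The cells are called piPSCs after their label, with NANOG near the floor of 3 counts in all 4 libraries.

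A tight junction is built from strands of claudins, with occludin and tricellulin in the same strands, and the strands are tied to actin by the TJP scaffold proteins. Which claudins a cell makes sets how tight the seal is and which ions may pass. A desmosome joins neighbouring cells through desmogleins and desmocollins, whose tails bind plakoglobin and plakophilins, and desmoplakin links this plaque to keratin filaments.

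The question was how transcripts of these contacts differed between IRF-1 overexpressing and control piPSCs. Transcripts of most of the abundant members were lower in the overexpressing cells. CLDN6, the main claudin of these cells, was 7.12-fold lower in mean CPM, the plakin PPL 9.94-fold lower, OCLN 6.22-fold lower and the plaque protein gene JUP 4.79-fold lower. CLDN10 ran the other way. Others, among them F11R and EVPL, were near the control level.

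Of the 40 members, 12 were called lower and 2 higher in the overexpressing cells by the quasi-likelihood test of edgeR, with a Benjamini-Hochberg adjusted p (over 13250 genes) under 0.05 and a change of 1 or more on the log2 scale. Over all tested genes, 10.6% were called lower and 8.61% higher. The filter on low counts passed 22 members and left out 18. Of the 22, 6 did not reach the filter's level in every library, so a count over tested members is no measure of how often the whole group changed. The median log2 fold change was -1.34 over the 22 tested members and -0.0016 over all tested genes; it stays at -1.34 with CLDN10, at 0 in both controls, set to the bound given below. RNA came from whole cultures, so fewer cells with such contacts and less RNA per cell cannot be told apart. The smallest two-sided p of an exact permutation test is 0.333 for groups of this size, and the labels do not say whether replicates were separate cultures, so the adjusted p values measure the spread between these libraries only.

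**Figure D1:**
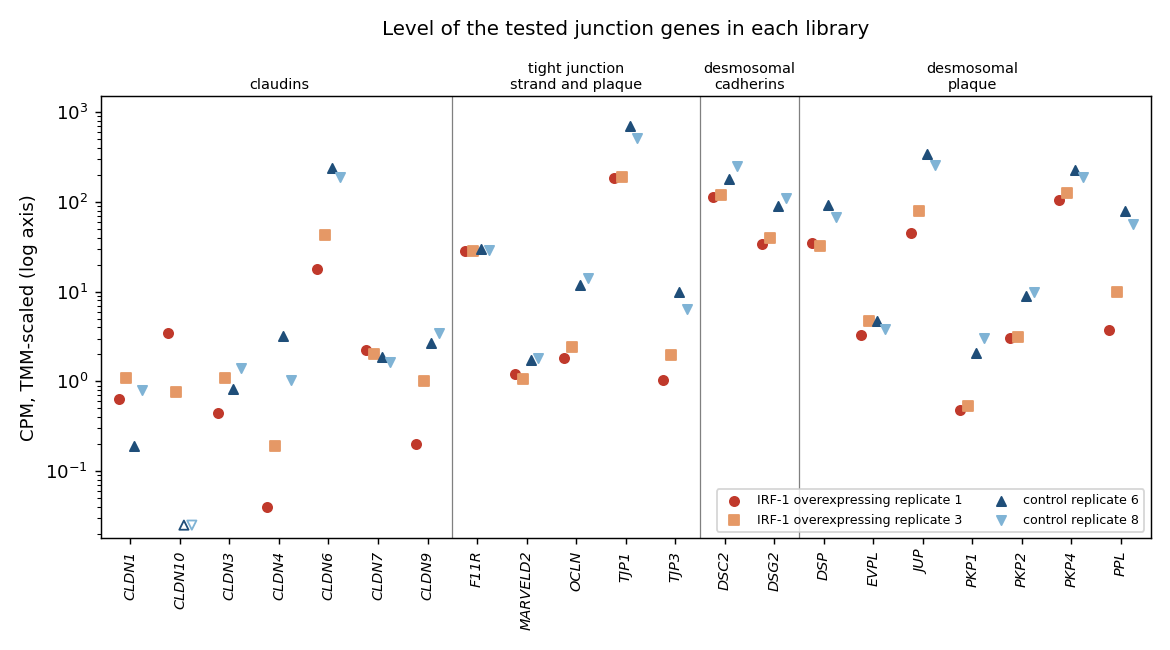
TMM-scaled CPM (log axis) of 21 of the 22 tested junction genes in each of the 4 libraries, grouped by role; each point is 1 library and open symbols at the bottom mark 0 counts. CLDN6 lies at 17.7 and 42.9 CPM in the overexpressing libraries and at 242 and 189 CPM in the controls, whereas the 4 points of F11R fall together between 28.2 and 30.1 CPM.

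CLDN6, a claudin known from early embryonic epithelia and pluripotent cells, had 441 and 893 counts in overexpressing replicates 1 and 3 and 3785 and 3315 counts in controls 6 and 8. Both controls lay above both overexpressing libraries, and replicate 3 held more than replicate 1. CLDN6 fell by 2.83 on the log2 scale (standard error 0.38, edgeR adjusted p = 0.00167). Without overexpressing replicate 3 the log2 fold change was -3.60. The gene is a single exon and lies on chromosome 3 (Sscrofa11.1 build), plus strand, at 39171390 to 39172135.

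CLDN9, a relative of CLDN6, lies 1165 bases further on, on the minus strand, with no other gene of the table between them. It had 5 and 21 counts with IRF-1 overexpression against 42 and 60 in the controls. The groups did not overlap, with replicate 1 lowest and replicate 3 between it and the controls. CLDN9 fell by 2.37 (standard error 0.66, edgeR adjusted p = 0.0312), but the call rested on single libraries: it was lost without overexpressing replicate 1 (log2 fold change -1.58) and without control replicate 8 (-2.17), and the value was -3.88 without overexpressing replicate 3. It was not called by glmTreat, which tests against the limit of 1 itself. How reads that match several genes were counted is not given, so reads shared between CLDN6 and CLDN9 cannot be told apart.

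CLDN4, a sealing claudin of many epithelia, was counted 1 and 4 times in the overexpressing cells and 50 and 18 times in the controls. It was low in both overexpressing libraries, and control 6 held more than control 8. Over pooled counts it was 18.7-fold lower in the overexpressing cells (95% exact interval for counting error only, 7.65 to 59.6), with a fitted log2 fold change of -4.17 (standard error 0.87, edgeR adjusted p = 0.0102). The fitted value was -3.39 without overexpressing replicate 1, where the call was lost, -5.49 without replicate 3, -3.15 without control replicate 6 and -4.77 without control replicate 8. Its neighbour CLDN3, also a sealing claudin and 19507 bases away on chromosome 3, had 11 and 23 counts against 13 and 25, with overlapping groups (log2 fold change -0.57, standard error 0.60, edgeR adjusted p = 0.515). The value for CLDN3 was -0.03 without overexpressing replicate 1, -1.34 without replicate 3, -0.90 without control replicate 6 and -0.11 without control replicate 8, and it was not called in any of these. CLDN4 shares 720 of its 1749 exon bases with METTL27 on the opposite strand, which was at 0 in all 4 libraries.

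CLDN10, whose isoforms form ion-selective pores, was the claudin called higher. It had 86 and 16 counts in overexpressing replicates 1 and 3 and 0 in both controls. The groups were separate, but the overexpressing libraries were far apart, at 3.46 and 0.769 CPM. Against a floor of 3 counts in each control library, the mean level was at least 11.6-fold higher in the overexpressing cells (edgeR adjusted p = 0.0115), and with replicate 3 alone it was at least 4.23-fold higher. CLDN10 had a CPM per kb of 2.09 and 0.464 in these libraries, below that of CLDN6 in the same libraries.

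CLDN1, a barrier claudin of skin, and CLDN7, a claudin that binds EPCAM, were tested and not called. CLDN1 had between 3 and 23 counts with overlapping groups, and its log2 fold change of 0.77 (standard error 0.70, edgeR adjusted p = 0.449) ran from 0.11 without control replicate 6 to 2.15 without control replicate 8. CLDN7 had between 29 and 55 counts (log2 fold change 0.27, standard error 0.39, edgeR adjusted p = 0.643), and 2009 of its 2896 exon bases lie opposite ELP5, which had between 412 and 769 counts. The strand setting of the counting is not given, so how reads from these shared bases were assigned, or whether they were dropped, is not known.

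The other 12 claudins were not tested. CLDN2, CLDN11, CLDN14, CLDN15, CLDN16, CLDN17, CLDN18 and CLDN25 were at 0 in all 4 libraries. The 0 of CLDN15 cannot be read as a level, since 3684 of its 3800 exon bases are shared with FIS1 on the same strand. CLDN22 and CLDN23 had at most 2 counts, and CLDN19 had 3 in each overexpressing library and 5 in each control. CLDN8 had 0 counts in both overexpressing libraries and 7 and 3 in the controls.

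Counted per kilobase of deposited exon length, so that genes can be compared, the claudins together held 27.6 and 61.7 CPM per kb in the overexpressing libraries and 333 and 262 CPM per kb in the controls. CLDN6 made up 86.1% and 93.2% of this sum in overexpressing replicates 1 and 3 and 97.5% and 96.8% in controls 6 and 8. It was the most abundant claudin in every library on this scale. The second was CLDN10 at 7.56% in replicate 1 and CLDN9 in the other libraries, at 2.50%, 1.23% and 2.00%.

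**Figure D2:**
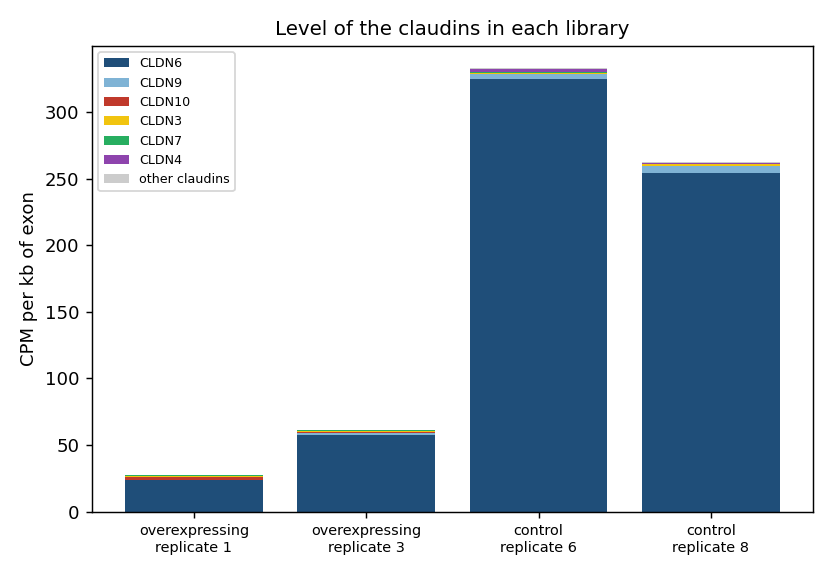
CPM per kb of exon of the claudins, stacked by gene, in each of the 4 libraries. CLDN6 fills most of each bar, and the whole bar is 27.6 and 61.7 CPM per kb high with IRF-1 overexpression against 333 and 262 in the controls.

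OCLN, which codes for occludin, a membrane protein of the strands, had 45 and 50 counts with IRF-1 overexpression against 186 and 250 in the controls. The replicates of each group were close and the groups were far apart. OCLN fell by 2.64 on the log2 scale (standard error 0.31, edgeR adjusted p = 0.00102). MARVELD2, which codes for tricellulin of the corners where cells meet, lies 37157 bases before OCLN on chromosome 16 with no gene of the table between them. It had 30 and 22 counts against 27 and 32, which is 1.13 ± 0.106 CPM against 1.78 ± 0.0719 CPM (SD, n = 2 each), the scaled values not overlapping. The log2 fold change of -0.65 did not pass the test (standard error 0.42, edgeR adjusted p = 0.291), and 689 of the 4098 exon bases of MARVELD2 are shared with RAD17 on the same strand. MARVELD3, a related protein gene, had between 1 and 6 counts and was not tested.

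F11R, an immunoglobulin-type adhesion protein of tight junctions, had 28.4 and 28.2 CPM in the overexpressing libraries and 30.1 and 28.8 CPM in the controls, from 470 to 707 counts. All 4 libraries were within 2 CPM of each other. The log2 fold change was -0.06 (standard error 0.16, edgeR adjusted p = 0.831), with a range of -0.08 to -0.03 when 1 library was left out.

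TJP1 and TJP3 code for scaffolds that bind claudin tails inside the cell. TJP1 had 4585 and 3980 counts with IRF-1 overexpression against 10857 and 8983 in the controls, or 188 ± 4.80 CPM against 604 ± 128 CPM (SD, n = 2 each). Both overexpressing libraries were well below both controls, and TJP1 fell by 1.68 (standard error 0.17, edgeR adjusted p = 0.000672). TJP3 had 26 and 41 counts against 156 and 111. It was again lower in both overexpressing libraries, and it fell by 2.44 (standard error 0.43, edgeR adjusted p = 0.00534). Of its 4989 exon bases, 826 lie opposite APBA3, and how reads from these bases were assigned is not given.

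**Figure D3:**
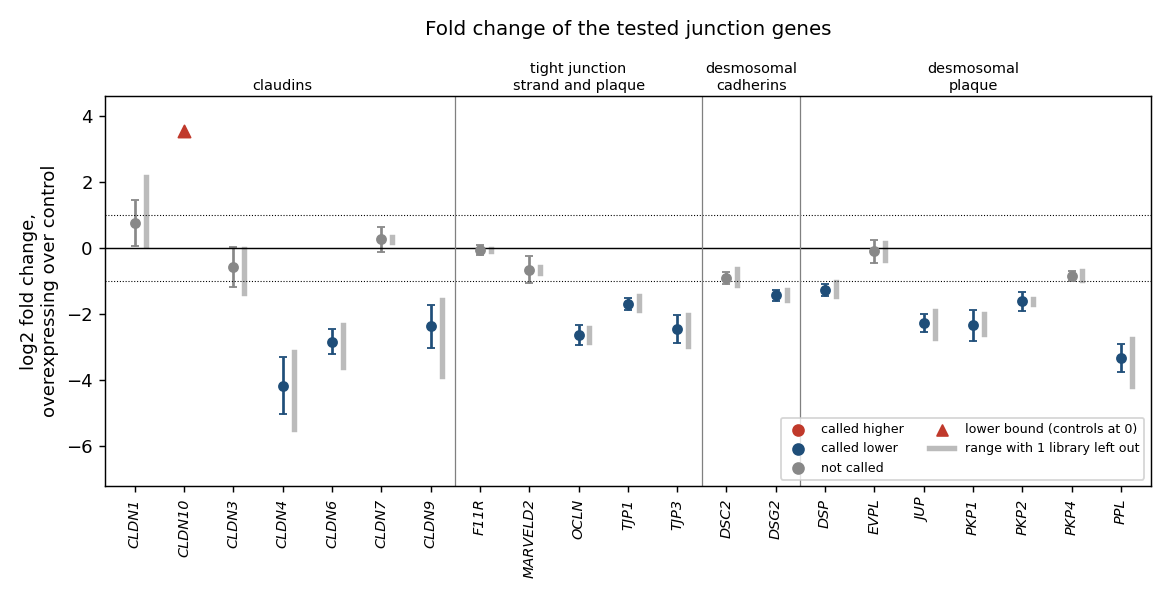
Log2 fold change (overexpressing over control) of 21 of the 22 tested junction genes with the standard error as bars; grey bars give the range with 1 library left out, dotted lines the limit of 1 in each direction, and the triangle the lower bound of CLDN10. CLDN10 lies above the upper line, 12 genes lie below the lower line, and the fold changes of CLDN4 and CLDN9 have the widest grey bars among the called genes with a fitted value shown.

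The 6 desmosomal cadherin genes with a named row lie in 1 cluster on chromosome 6, from 114918815 to 115454339, in the order DSC2, DSC1, DSG1, DSG4, DSG3, DSG2. The genes at its ends, DSC2 and DSG2, are the pair that simple epithelia use, and they held nearly all the cadherin counts. DSG2 had 843 and 830 counts with IRF-1 overexpression against 1393 and 1918 in the controls. It was lower in both overexpressing libraries and fell by 1.43 (standard error 0.17, edgeR adjusted p = 0.00105). DSC2 had 2822 and 2514 counts against 2838 and 4451, which is 117 ± 5.14 CPM against 218 ± 51.5 CPM (SD, n = 2 each). Scaled for library size, the groups did not overlap, and the control libraries were further apart than the overexpressing ones. DSC2 fell by 0.90 (standard error 0.18, edgeR adjusted p = 0.00944), short of the limit of 1; without control replicate 6 it fell by 1.12 and was called, and without control replicate 8 it fell by 0.62. Without overexpressing replicate 1 the value was -0.84 and the adjusted p of edgeR passed 0.05.

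The 4 genes inside the cluster, which belong to stratified epithelia and hair, were near the floor in both groups and were not tested. DSC1 had 1 and 2 counts with IRF-1 overexpression against 3 and 8 in the controls, and DSG4 had 0 and 1 against 0 and 7. DSG1 and DSG3 had at most 3 counts in any library. Per length, DSC2 was above DSG2 in every library, by 2.06 and 1.86 times in the overexpressing cells and 1.25 and 1.43 times in the controls.

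**Figure D4:**
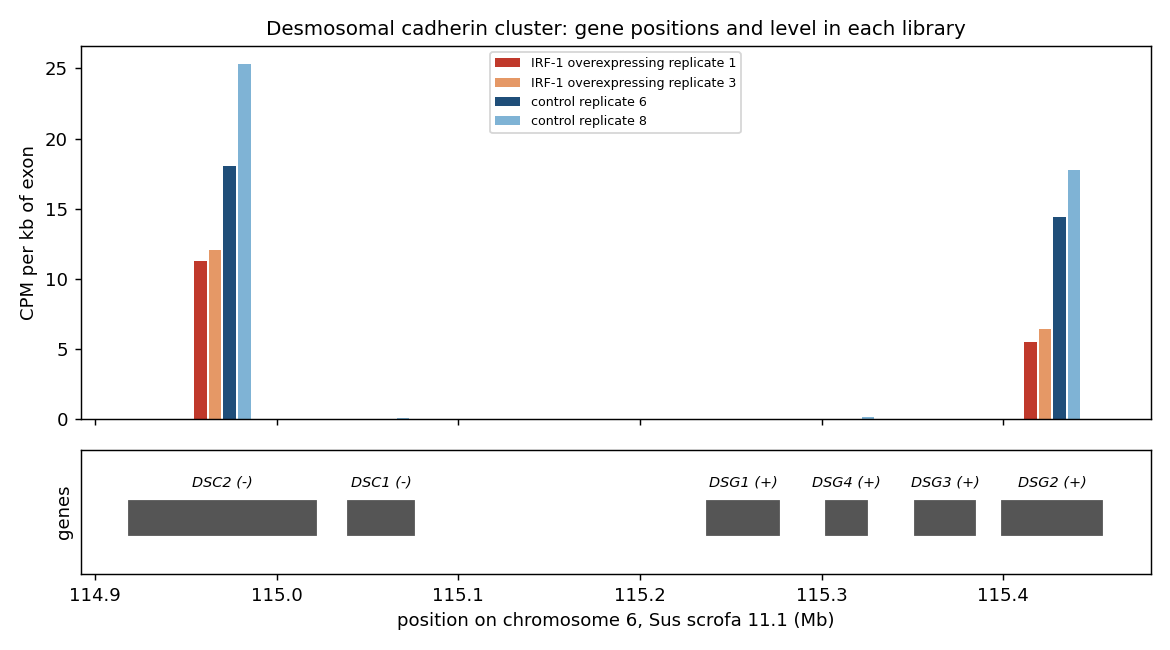
Positions of the 6 desmosomal cadherin genes on chromosome 6 (lower panel, to scale, strand in brackets) and their CPM per kb of exon in each library (upper panel, bars centred on the middle of each gene). The bars of DSC2 and DSG2 reach 25.3 and 17.7 CPM per kb in control replicate 8, and those of the 4 genes between them do not exceed 0.131.

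In the plaque, JUP, which codes for plakoglobin and is shared with adherens junctions, had 1126 and 1656 counts with IRF-1 overexpression against 5293 and 4540 in the controls. It was lower in both overexpressing libraries, more so in replicate 1, and fell by 2.26 (standard error 0.27, edgeR adjusted p = 0.0012). DSP, the gene of desmoplakin, had 857 and 679 counts against 1446 and 1182, or 33.5 ± 1.31 CPM against 80.0 ± 17.6 CPM (SD, n = 2 each). DSP was lower in both overexpressing libraries and fell by 1.25 (standard error 0.18, edgeR adjusted p = 0.0024). It was not called by glmTreat.

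The plakins PPL and EVPL, which join the plaque and the envelope of keratinised cells, gave unlike values, a difference that was not itself tested. PPL had 92 and 207 counts in overexpressing replicates 1 and 3 and 1225 and 1002 in controls 6 and 8. The groups were wide apart, with replicate 3 above replicate 1, and PPL fell by 3.32 (standard error 0.42, edgeR adjusted p = 0.00135). Without overexpressing replicate 3 it fell by 4.19. EVPL had 82 and 99 counts against 74 and 67, and the CPM values of the groups overlapped, between 3.30 and 4.76. The log2 fold change of -0.09 did not pass the test (standard error 0.35, edgeR adjusted p = 0.876), and 1246 of the 9493 exon bases of EVPL lie opposite CDK3. Per length, EVPL stood at 0.582 and 0.312 of the PPL level with IRF-1 overexpression and at 0.0394 and 0.0437 in the controls.

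Plakophilins bind desmoplakin and gather cadherins into the junction. PKP2, the form of simple epithelia and heart, had 76 and 65 counts with IRF-1 overexpression against 140 and 174 in the controls. The replicates of each group were within 1 CPM of each other, at 3.09 ± 0.0466 CPM against 9.45 ± 0.699 CPM (SD, n = 2 each), and PKP2 fell by 1.61 (standard error 0.29, edgeR adjusted p = 0.00543). PKP1, best known from stratified epithelia, had 12 and 11 counts against 32 and 54. It was low in both overexpressing libraries and fell by 2.34 (standard error 0.47, edgeR adjusted p = 0.00928); without overexpressing replicate 1 the log2 fold change was -2.25 and the call was lost. Neither PKP1 nor PKP2 was called by glmTreat.

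PKP4, which is also found at adherens junctions, made up between 92.4% and 96.6% of the plakophilin level per length in every library. It had 2624 and 2643 counts with IRF-1 overexpression against 3552 and 3312 in the controls, with the groups apart at 116 ± 15.2 CPM and 208 ± 26.8 CPM (SD, n = 2 each). PKP4 fell by 0.84 (standard error 0.16, edgeR adjusted p = 0.00764), which is under the limit of 1; without overexpressing replicate 1 the value was -0.70 and the adjusted p passed 0.05. It has 313 of 5971 exon bases opposite an unnamed gene. PKP3 had between 1 and 4 counts and was not tested.

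The order of levels per length differed between the groups, as a description without a test. In controls 6 and 8, CLDN6 was far ahead at 325 and 254 CPM per kb, followed by JUP at 105 and 80.7 and TJP1 at 87.2 and 64.4, which overlapped. In overexpressing replicates 1 and 3, CLDN6 at 23.8 and 57.5, TJP1 at 23.2 and 24.0, F11R at 23.1 and 22.9, JUP at 14.1 and 24.8 and PKP4 at 17.7 and 21.3 CPM per kb were less spread, and the range of JUP overlapped that of each of the other 4. DSC2 had 11.3 and 12.0 CPM per kb in these libraries.

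The overexpressing libraries differed in degree. Of the 12 members called lower, 11 had a higher CPM in replicate 3 than in replicate 1, and in 6 of them by more than 1.5 times. IRF1 itself was at 330 CPM in replicate 1 and 264 CPM in replicate 3. Over all tested genes, which are not independent, the correlation of log2 CPM with the controls was 0.891 and 0.908 for replicate 1 and 0.919 and 0.933 for replicate 3; the part of either measure in the results was not tested.

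Genes that act beside these junctions were counted in 8 further lists, of which 95 of 105 genes had a named row and 68 were tested. In total 27 were called lower and 7 higher, and the median log2 fold change was -0.81. Over all tested genes, the main fit called 10.6% lower and 8.61% higher, and the list counts that follow stand beside these shares. The calls lower and higher numbered 13 and 2 with glmTreat, where 4.55% of all tested genes were called lower and 4.61% higher. Both counts, and both shares over all tested genes, also fell without overexpressing replicate 1. Of 31 other tight junction and polarity genes, 8 were lower and 3 higher, or 4 and 1 with glmTreat. The 3 called higher make up 9.68% of the 31, near the share over all tested genes. CGNL1, the gene of paracingulin, had 493 and 311 counts with IRF-1 overexpression against 32 and 63 in the controls, both overexpressing libraries being far above, and rose by 2.61 on the log2 scale (standard error 0.34, edgeR adjusted p = 0.00154). The adhesion genes JAM2 and JAM3, relatives of F11R, had log2 fold changes of -2.13 and -1.16 (edgeR adjusted p = 0.00109 and 0.00164; JAM3 was not called by glmTreat), and CXADR at -0.35 did not pass the test (edgeR adjusted p = 0.104). JAM2 and JAM3 have 325 and 108 exon bases opposite MRPL39 and NCAPD3. The polarity protein gene PATJ fell by 1.80 and AMOTL2 by 2.14, the latter by 1.39 without control replicate 6.

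Of 11 adherens junction genes 6 were lower, but 3 without overexpressing replicate 1 and 1 with glmTreat. CDH1, the gene of E-cadherin, had 631 and 1539 counts in overexpressing replicates 1 and 3 and 3753 and 4062 in controls 6 and 8; it fell by 2.25 (standard error 0.42, edgeR adjusted p = 0.00676), by 1.66 without overexpressing replicate 1 and by 3.21 without replicate 3. CDH2, the gene of N-cadherin, fell by 1.06 (edgeR adjusted p = 0.00162), and by 0.92 without overexpressing replicate 1, which ended the call, as did glmTreat. CTNNB1, the gene of beta-catenin that shares its role with plakoglobin, was not called at 0.21 (edgeR adjusted p = 0.241). CDH1 and, less firmly, CDH2 were thus lower beside a beta-catenin transcript near its control level. CDH3, another classical cadherin gene of this list, was tested and was not among the 6 called. Of 6 hemidesmosome genes 4 were lower, among them PLEC (-1.75) and ITGB4 (-2.40, and -3.08 without overexpressing replicate 3; 135 of its exon bases lie opposite GALK1). Of 16 gap junction genes, 6 of them tested, 2 were lower and 1 was higher, or 12.5% and 6.25% of the 16. Over all tested genes 10.6% were lower and 8.61% higher, so these few calls give no result about the list. The call higher was lost with glmTreat or DESeq2, and it also depended on overexpressing replicate 1 and control replicate 8. GJA1, the widely used connexin gene, fell by 1.76 (standard error 0.20, edgeR adjusted p = 0.00102).

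Of the keratins that desmosomes anchor, 5 of 9 had a named row, and KRT8 and KRT18 were the 2 tested. KRT8 had 6213 and 21095 counts in overexpressing replicates 1 and 3 and 187722 and 130983 in controls 6 and 8, and KRT18 had 343 and 1843 against 55405 and 35599. Both were lower in the overexpressing libraries than in the controls and lowest in replicate 1. KRT8 still held 250 and 1014 CPM in overexpressing replicates 1 and 3. KRT8 fell by 3.95 and KRT18 by 5.77 (edgeR adjusted p = 0.003 and 0.00223), and without overexpressing replicate 3 KRT8 fell by 5.28 and KRT18 fell by 7.65. Without overexpressing replicate 1 the values were -3.25 and -4.96.

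Among 15 regulators of epithelial genes, 3 were higher and 3 lower, and 1 and 1 both with glmTreat and without overexpressing replicate 1. GRHL1 rose by a log2 fold change of 1.28 and ESRP1, a splicing factor of epithelia, by 1.93 (edgeR adjusted p = 0.0176 and 0.00986); without overexpressing replicate 1 these were 1.12 and 1.50 and neither was called. GRHL2 had 2 counts in 1 library and 0 in the others, OVOL2 had 10 and 4 counts against 0 and 1, and OVOL1 at -1.37 did not pass the test (edgeR adjusted p = 0.134). OVOL1 was called at -1.91 with control replicate 8 left out (edgeR adjusted p = 0.0408), and stood at -0.50 with control replicate 6 left out. TFAP2A rose by 3.72 and TFAP2C fell by 2.82. The other regulators called lower, GRHL3 and KLF5, had at most 37 counts and were not called without overexpressing replicate 1, at -2.13 and -1.54; KLF5 was also not called without replicate 3 (-2.38) or control replicate 8 (-1.51), nor by DESeq2 (DESeq2 adjusted p = 0.0861). None of GRHL1, ESRP1, GRHL3 and KLF5 was called by glmTreat. OVOL1 has 370 exon bases opposite AP5B1. In the repressor list 3 of 6 genes were tested and 0 were called by edgeR, with 0 at an unadjusted p under 0.05 and 0 called by DESeq2; ZEB1 was at -0.02 and SNAI2 at 0.72 (edgeR adjusted p = 0.944 and 0.297). In the matriptase list, membrane proteases and their partners, 2 of 7 genes were lower, ST14 and TMPRSS2, neither of them without overexpressing replicate 1 (-1.28 and -1.67) and TMPRSS2 also not without control replicate 6 (-1.46), and neither by glmTreat; EPCAM had 198 and 187 counts against 113 and 129 (log2 fold change 0.21, edgeR adjusted p = 0.574).

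Markers of other cell types were counted beside these genes, and their part in the junction results was not tested. Over all tested genes 10.6% were called lower and 8.61% higher, and a list with 1 call gives no comparison with these shares. Of 12 fibroblast and feeder markers, 11 had a named row, 3 were lower and 1 higher; their summed level was 448 and 365 CPM in the overexpressing libraries and 620 and 639 CPM in the controls, with FN1 the most abundant. PDGFRB had 28 and 62 counts against 1966 and 978, COL1A2, called higher, had 3458 and 1690 against 1006 and 699 (log2 fold change 0.65 without overexpressing replicate 1 and 0.78 without control replicate 8, not called, nor called by glmTreat), and COL6A3 and LUM had at most 3 counts. Of 8 neural markers, 6 had a named row and 3 were higher; they summed to 366 and 128 CPM against 8.31 and 12.8 CPM, mostly TUBB3 at 351, 117, 6.20 and 10.6 CPM, and NEUROG2 was at 0 in both controls. PAX6, with at most 17 counts, had 0.483 and 0.144 CPM against 0.704 and 0.971 CPM and was not called. TUBB3 was higher in replicate 1 than in replicate 3, and NEUROG1 was higher in replicate 3, at 4.71 and 6.10 CPM in replicates 1 and 3. Trophoblast markers summed to 613, 611, 621 and 860 CPM, nearly all from PEG10, with CDX2 and HAND1 at 0 in every library and 1 of 10, TFAP2A, called higher. KRT8, TFAP2C and DAB2 are also trophoblast genes, though they stood in other lists here, and these were called lower, with DAB2 at -3.09 (edgeR adjusted p = 0.00294). Primitive endoderm markers summed to 394, 421, 516 and 571 CPM, mostly from LAMA1. GATA6 held 37.8 and 57.7 CPM in overexpressing replicates 1 and 3 and 45.3 and 42.7 CPM in controls 6 and 8. FOXA2, AFP and TTR were at 0, and 1 of 8 named rows, DAB2, was called lower. Of the epidermal markers, TP63 had 2 counts in control replicate 8 and 0 elsewhere, and IVL was at 0. The pluripotent cell markers summed to 1279, 1264, 1296 and 1468 CPM, with DNMT3B the most abundant and 2 of 6, LIN28A and ESRRB, called lower, LIN28A not by glmTreat.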

How the data were processed

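RNA-seq was done on oligo(dT) libraries of piPSCs, 2 per group; the ChIP-seq libraries were not used here. Reads were trimmed with trim_galore, mapped to the Sscrofa11.1 build with HISAT2 and counted with featureCounts 1.6.4 by the authors, who deposited whole-number counts per gene without normalization; htseq-count is also named. The deposited exon length, in bases, is an annotation value in the same table. Annotation release, strand setting and treatment of multi-mapped reads are not given in the sources used here, so exon bases shared between genes were counted. No count column was left unused. Symbols were found for 14692 of 24358 identifiers. Columns were matched to samples by their titles, and groups follow the study's account because the genotype label is the same for all 4 libraries.

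Counts were fitted over the whole table with edgeR 4.0.16 in R 4.3.3 (TMM factors, filterByExpr by group, quasi-likelihood F test, Benjamini-Hochberg adjustment over 13250 genes; common dispersion 0.0313) and checked on simulated counts. The standard error is the log2 fold change divided by the square root of F. Calls needed a log2 fold change of 1 or more in either direction with the adjusted p under 0.05. One count was worth between 0.0401 and 0.0628 CPM, and 3 counts per library were taken as the floor. Counts of replicates were further apart than sampling gives (chi-square over its degrees of freedom 17.9 in the overexpressing and 31.3 in the control libraries), and each library counted as 1 sample. Alternatives were RLE factors, library size alone, no filter on low counts, DESeq2 1.42.0, glmTreat, no minimum fold change, and each library left out in turn. Tables were made with pandas 2.3.3 and numpy 2.4.6 and figures with matplotlib 3.10.9, in Python 3.11.15. Named genes were IRF1, every member, fixed genes of the related lists and up to 6 called genes with the largest fold change in each list, of which part is given as counts; values of some single genes are left out here. The members and all lists were chosen with earlier results of these data known. No sequences were used.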

Additional observations from a re-analysis of the deposited data

How the results depend on the processing

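The count of members called lower was 12 with RLE factors, library size alone, no filter on low counts and DESeq2, 14 with no minimum fold change and 8 with glmTreat; with 1 library left out it lay between 9 and 13. The count called higher was 2 in these settings, except 1 with glmTreat, which tests against the limit itself; it was 2 with each library left out. Among all tested genes, 10.6% were called lower in the main fit and 4.55% with glmTreat. This share was 10.6% with RLE factors, 10.8% with library size alone, 8.76% with no filter and 9.99% with DESeq2. The share called higher was 8.61% in the main fit and 4.61% with glmTreat. Both shares also changed with each library left out, so those member counts alone give no comparison with other genes. The median log2 fold change of tested members lay between -1.35 and -1.32 with other factors, filter or DESeq2 and between -1.44 and -1.29 with 1 library left out. Signs changed for EVPL, between -0.37 and 0.17, and ZEB1, between -0.19 and 0.14, with 1 library left out; the cause was not tested. Of the 69 named genes tested, calls were lost for 23 with glmTreat, 2 with DESeq2, 14 without overexpressing replicate 1, 2 without replicate 3, 1 without control replicate 6 and 5 without control replicate 8. A group with 1 library left is assumed to vary like the other group. No paired analysis was possible because the replicate numbers are not shared between the groups. With 2 libraries a group, members with few counts, such as CLDN4, CLDN9 and PKP1, are measured with the least precision, and differences in members at or under 3 counts were not detectable at this depth.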
